A study of Mus musculus with 6 samples.

Results

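The 10 genes followed here are switched on by Wnt and beta-catenin signalling, and their transcripts were measured in mouse E14 embryonic stem cells. They were chosen by name as reported direct targets of the pathway, with earlier results of these data known. All 10 of the 10 were found among the 52636 genes of the count tables. RNA sequencing had been done on 6 libraries, 3 of wild-type cells and 3 of cells in which an enhancer cluster had been knocked out. Every library came from E14 cells differentiated for 4 days with retinoic acid at 5 µM (the labels write the unit as µm), and the wild-type group carried no other named change. Beforehand both groups had grown with LIF, a MEK inhibitor (PD0325901) and a GSK inhibitor (CHIR99021), all withdrawn for the differentiation. The series' title ties the enhancer cluster to HoxB activation and to the formation of NPCs, and its design text calls the samples NPC. Where the deletion lies, and from how many clones the knockout cells came, was not given in the sources used here, so no count checks the deletion. The same text names the 3 libraries of a group as biological replicates.

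Wnt proteins bind Frizzled and LRP receptors at the cell surface. Binding stops a destruction complex built on Axin, APC and the kinase GSK3, and beta-catenin then enters the nucleus and joins TCF and LEF factors on DNA. A GSK3 inhibitor such as CHIR99021 stabilises beta-catenin without any Wnt. Many direct targets are themselves brakes on the pathway, and others are transcription factors of the early embryo, where Wnt signalling patterns the posterior body and the neural tube.

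Gene counts came to 7780368 to 9472916 per library. Knockout replicate 1 stood apart, with 1.04% of its counts in 5 genes known to collect ribosomal RNA reads, against 0.0726 to 0.118% in the other libraries. The mitochondrial share of counts was 1.67 to 1.73% in wild type and 2.58 to 2.89% in the knockout. Of the 10 markers listed for each, 9 of stem cells and 8 of neural progenitors had enough counts to be tested. The stem cell factor Pou5f1 was at 184.0 ± 5.36 (SD, n = 3) CPM (counts per 1000000 counts of a library) in wild type and 200.6 ± 14.9 in the knockout. The early neural marker Sox1 was at only 1.98 ± 0.521 and 1.84 ± 0.607 CPM, Fabp7 had 0 counts in all libraries, and Hes5 had 1 count in 1 library. Summed over their list, the stem cell markers reached 1094.2 to 1114.1 CPM in wild type and 766.8 to 797.7 in the knockout. The neural list, which shares Sox2 with it, reached 471.3 to 495.7 and 154.5 to 164.3 CPM. The genes named here are a few of each list and do not stand for it. At an adjusted p under 0.05 by edgeR, 6 of the 9 stem cell markers tested were lower in the knockout and 2 higher. Of the 8 neural markers 3 were lower and 3 higher, where 34.0% of all genes tested were lower and 34.5% higher.

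All 10 target genes had enough counts to be tested, and all 10 fell in the knockout. Here and throughout, a gene is said to fall or rise where its adjusted p (Benjamini-Hochberg) was under 0.05 in the quasi-likelihood test of edgeR. Over all 15816 genes tested, 34.0% fell and 34.5% rose, so 68.6% changed in all. In the edgeR test 0 of the targets rose, and 0 had a rise at an unadjusted p under 0.05 (DESeq2 and limma-voom also gave 0). The median log2 fold change, knockout over wild type, was -2.43 over the 10 and 0.0091 over all genes tested. A fall of at least 1 on the log2 scale was seen in 8 of the 10, against 9.47% of all genes tested, and one of at least 2 in 6, against 2.05%. As the 10 were chosen with earlier results of these data known, these shares describe the list and are not a test of it. In each of the 10 every knockout library lay below every wild-type library, a separation seen in 35.4% of all genes tested. Fold changes ranged from -6.31 for Ccn4 to -0.30 for Tcf7. In such bulk libraries fewer cells of a type and less RNA per cell cannot be told apart.

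**Figure D1:**
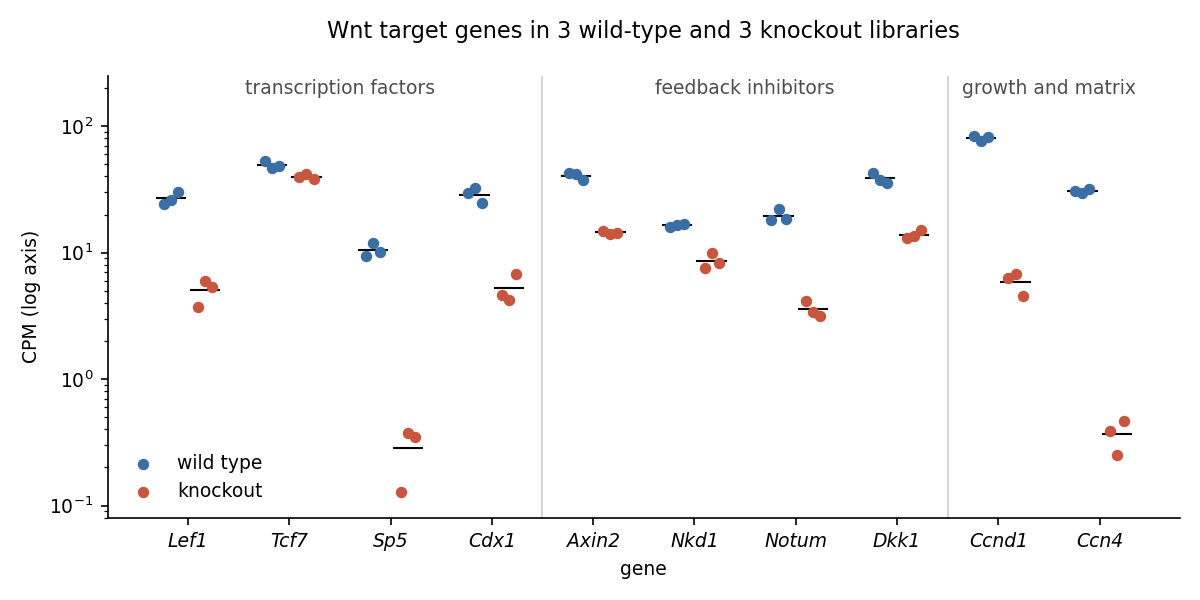
Level in CPM (log axis) of the 10 Wnt target genes in each library, grouped by role, with black lines at the group means. The 3 knockout points (red) lie below the 3 wild-type points (blue) for every gene, by little for Tcf7 and by most for Ccn4 and Sp5.

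Promoter sequence is shown for the target genes whose upstream windows held the letters that TCF and LEF factors are known to bind. RefSeq windows (build GRCm38.p6) were at hand for 6 of the 10: Sp5, Lef1, Axin2, Nkd1, Tcf7 and Dkk1. Notum, Ccnd1, Cdx1 and Ccn4 had no entry. The 250 bases before each start were searched for CTTTGA on both strands, where the other strand reads TCAAAG. These letters were in 3 of 10 windows, of 3 genes, each time as a pair. Over all 32851 windows of that length 13.8% held at least 1 copy and 1.37% held 2 or more. By gene, 3 of the 6 had a window with the letters, against 15.8% of all 27025 genes with windows. Capitals mark the motif in the 3 windows below, each printed 5′ to 3′ on the gene's strand.
Sp5, chr2:70474673-70474922, plus strand: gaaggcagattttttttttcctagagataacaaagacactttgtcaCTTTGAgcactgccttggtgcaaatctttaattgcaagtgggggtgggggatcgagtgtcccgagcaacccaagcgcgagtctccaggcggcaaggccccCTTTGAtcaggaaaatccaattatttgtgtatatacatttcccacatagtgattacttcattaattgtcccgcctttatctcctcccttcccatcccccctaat
Dkk1, chr19:30549497-30549746, minus strand: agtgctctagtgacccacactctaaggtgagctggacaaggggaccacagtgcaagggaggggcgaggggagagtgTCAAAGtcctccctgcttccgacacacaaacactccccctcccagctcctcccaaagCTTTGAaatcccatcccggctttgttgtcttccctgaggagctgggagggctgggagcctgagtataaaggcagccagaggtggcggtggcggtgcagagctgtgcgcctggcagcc
Lef1, chr3:131156044-131156293, plus strand: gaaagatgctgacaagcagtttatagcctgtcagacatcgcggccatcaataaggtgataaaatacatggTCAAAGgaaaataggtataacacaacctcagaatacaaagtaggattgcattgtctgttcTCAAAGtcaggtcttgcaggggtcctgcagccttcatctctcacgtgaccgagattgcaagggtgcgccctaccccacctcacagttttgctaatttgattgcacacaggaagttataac
In Sp5 the motif began 204 and 104 bases before the start, in Dkk1 174 and 117, and in Lef1 180 and 120. The Lef1 window belongs to the last of its 4 annotated starts, inside the gene, and the windows of the other 3 did not hold the letters. The Nkd1 window, from 88527383 to 88527632, also lay inside the gene, which starts at 88521354. So did the Lef1 window from 131112541 to 131112790 and the Tcf7 window from 52282596 to 52282845. The Dkk1 window lay partly inside its gene, which reaches 30549665. The genes with the motif did not fall alike, as Sp5 was at -5.11 and Dkk1 at -1.47, and Axin2, whose window did not hold it, was at -1.48. Such a match describes letters and is not evidence of binding, and a window without it speaks for 1 start only.

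Among the transcription factors, the paralogues Lef1 and Tcf7, which carry beta-catenin to DNA, differed widely in how far they fell. Lef1 (ENSMUSG00000027985, chromosome 3, 131110471 to 131224356, GRCm38) had wild-type values of 24.2, 25.8 and 30.3 CPM and knockout values of 3.74, 5.99 and 5.39 CPM. Its log2 fold change was -2.40 (SE 0.16, adjusted p = 6.02e-13 by edgeR, n = 3 per group). The lowest of its knockout values was that of replicate 1, and without that library the fold change was -2.23. Tcf7 (ENSMUSG00000000782, chromosome 11, 52252371 to 52283014) had wild-type values of 53.0, 46.6 and 48.0 CPM and knockout values of 39.8, 41.7 and 38.2 CPM. The groups did not overlap, but the fall was small, at 0.30 on the log2 scale (SE 0.079, adjusted p = 0.00162 by edgeR), or 81.2% of the wild-type level. The 95% intervals of the fold change ran from -2.73 to -2.07 for Lef1 and from -0.47 to -0.14 for Tcf7. Of the 2 other genes of this family, Tcf7l1, mostly a repressor in stem cells, was at -0.23 (SE 0.055, adjusted p = 7.86e-04 by edgeR). Tcf7l2 was at -0.06 (SE 0.10) and did not pass the test, with a mean of 27.1 ± 1.53 CPM in wild type and 26.1 ± 2.31 in the knockout.

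Sp5 and Cdx1 encode further transcription factors. Sp5 (ENSMUSG00000075304, chromosome 2, 70474923 to 70477729), a zinc finger factor induced by beta-catenin that occupies many of its other targets, had wild-type values of 9.34, 11.8 and 10.2 CPM. In the knockout it was at 0.129, 0.374 and 0.351 CPM, from 1, 3 and 3 reads. Pooled over each group and scaled to library size, the knockout held 2.74% of the wild-type level (95% exact binomial interval 1.09 to 5.73%, for counting error only). The log2 fold change was -5.11 (SE 0.34, adjusted p = 8.23e-13 by edgeR), which ranked 11 among the lowest of the 15816 genes tested. Cdx1 (ENSMUSG00000024619, chromosome 18, 61018862 to 61036199), a caudal homeobox factor that answers to Wnt and to retinoic acid and acts on Hox genes, had wild-type values of 29.4, 32.1 and 24.5 CPM. Its knockout values were 4.64, 4.24 and 6.79 CPM, and the log2 fold change was -2.45 (SE 0.16, adjusted p = 5.27e-13 by edgeR). The spread of Cdx1 was the widest of the 10 in wild type, with a coefficient of variation of 13.4%, yet the groups stayed far apart.

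Inside the cell, feedback is made by Axin2 and Nkd1. Axin2 (ENSMUSG00000000142, chromosome 11, 108920349 to 108950783), a scaffold of the destruction complex and the usual readout of the pathway, had wild-type values of 42.3, 41.5 and 37.2 CPM. It was at 14.9, 14.1 and 14.3 CPM in the knockout, and fell by 1.48 on the log2 scale (SE 0.10, adjusted p = 2.15e-12 by edgeR). Its knockout libraries were the closest together of any of the 10 genes, with a coefficient of variation of 3.07%. Axin1, the scaffold that is not a feedback target, was at -0.20 (SE 0.056, adjusted p = 0.00314 by edgeR), from 82.3 ± 2.32 to 71.9 ± 1.74 CPM. Nkd1 (ENSMUSG00000031661, chromosome 8, 88521354 to 88594884), which binds Dishevelled and dampens the signal, had wild-type values of 16.0, 16.4 and 16.8 CPM and knockout values of 7.60, 9.86 and 8.32 CPM. Its fall was 0.93 on the log2 scale (SE 0.15, adjusted p = 3.97e-06 by edgeR). Its paralogue Nkd2 was at 0.52 (SE 0.30) and did not pass the test, at 2.63 ± 0.613 CPM in wild type and 3.76 ± 0.833 in the knockout.

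Outside the cell, feedback is made by Notum and Dkk1. Notum (ENSMUSG00000042988, chromosome 11, 120653788 to 120661175), an enzyme that strips the lipid from Wnt proteins, had wild-type values of 18.2, 22.1 and 18.4 CPM and knockout values of 4.12, 3.37 and 3.16 CPM. The log2 fold change was -2.47 (SE 0.17, adjusted p = 2.00e-12 by edgeR). Dkk1 (ENSMUSG00000024868, chromosome 19, 30545863 to 30549665), which blocks the LRP co-receptors, had wild-type values of 42.3, 37.5 and 35.7 CPM. It was at 13.1, 13.5 and 15.0 CPM in the knockout, and fell by 1.47 on the log2 scale (SE 0.11, adjusted p = 7.26e-12 by edgeR). Axin2, Nkd1, Notum and Dkk1 were thus all lower, and Dkk1 and Axin2 fell by sizes whose 95% intervals almost coincide, -1.70 to -1.24 and -1.70 to -1.27.

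Ccnd1 and Ccn4 carry the signal to growth and matrix. Ccnd1 (ENSMUSG00000070348, chromosome 7, 144929931 to 144939925) encodes cyclin D1, which drives cells through G1. It had wild-type values of 83.7, 76.4 and 81.8 CPM and knockout values of 6.31, 6.74 and 4.57 CPM. The log2 fold change was -3.78 (SE 0.11, adjusted p = 2.13e-20 by edgeR, the smallest of the 10). Ccn4 (ENSMUSG00000005124, chromosome 15, 66891320 to 66923201), also called Wisp1, encodes a secreted matrix protein. It had wild-type values of 30.5, 29.5 and 31.5 CPM and knockout values of 0.386, 0.250 and 0.468 CPM, from 3, 2 and 4 reads. Pooled over each group, the knockout held 1.22% of the wild-type level (95% exact binomial interval 0.554 to 2.32%, for counting error only). Only 2 of the 15816 genes tested had a lower fold change than Ccn4, whose own was -6.31 (SE 0.23, adjusted p = 1.98e-18 by edgeR).

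**Figure D2:**
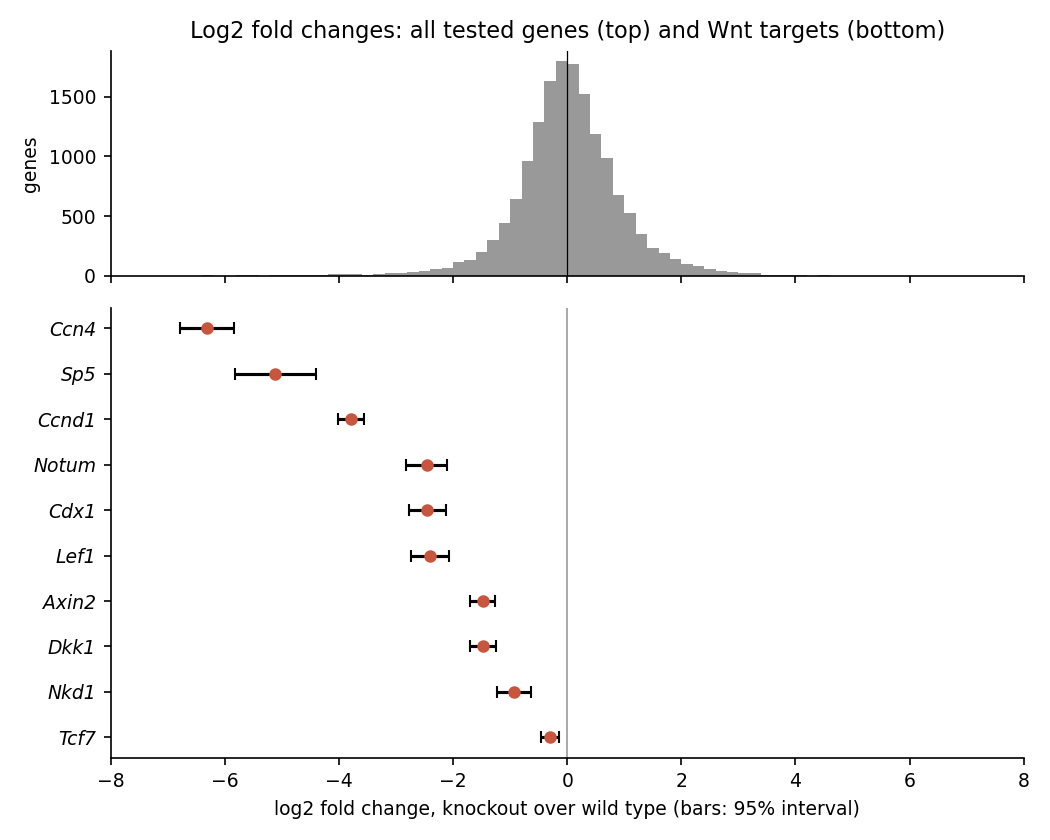
Log2 fold changes, knockout over wild type, as a histogram over the 15816 genes tested (top) and for the 10 Wnt target genes with 95% intervals (bottom). All 10 intervals lie below 0, from -6.78 to -5.84 for Ccn4 to -0.47 to -0.14 for Tcf7.

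The falls differed in size between genes, and no grouping of them was tested. Ccn4 and Sp5 fell furthest, then Ccnd1. Notum, Cdx1 and Lef1 followed, between -2.47 and -2.40, and their 95% intervals overlapped. Axin2 and Dkk1 came next, then Nkd1, then Tcf7. Within groups the coefficient of variation over 3 libraries was 2.58 to 13.4% in wild type and 3.07 to 47.6% in the knockout, where the widest was that of Sp5 with its 1 to 3 reads. Knockout replicate 1 was the lowest knockout library for 4 of the 10 genes and the highest for 2. Without it all 10 were still lower.

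Levels per length (RPKM, CPM divided by the kilobases of annotated exon) allow genes to be compared, and their order changed. In wild type the top was shared by Tcf7 at 18.7 ± 1.28 (SD, n = 3), Ccnd1 at 17.1 ± 0.812, Cdx1 at 16.4 ± 2.20 and Dkk1 at 15.9 ± 1.41, each overlapping the next. Then came Notum at 8.13 ± 0.915 with Axin2 at 7.33 ± 0.502, and Ccn4 at 5.48 ± 0.186 with Sp5 at 4.97 ± 0.596, where the members of each pair overlapped. Nkd1 at 3.59 ± 0.0928 and Lef1 at 3.05 ± 0.358 were lowest and lay apart. In the knockout Tcf7 alone stayed high, at 15.2 ± 0.666, followed by Dkk1 at 5.71 ± 0.406. Cdx1 at 2.99 ± 0.784 overlapped Axin2 at 2.62 ± 0.0804, and Nkd1 at 1.88 ± 0.253, Notum at 1.47 ± 0.210 and Ccnd1 at 1.25 ± 0.244 each overlapped the next. Lef1 was at 0.573 ± 0.133, and Sp5 at 0.136 ± 0.0646 overlapped Ccn4 at 0.0662 ± 0.0199. Ccnd1 thus went from the level of Tcf7 to below that of Nkd1. The order in wild type rests on the exon length used. With the longest transcript of each gene in place of all annotated exons 8 of the 10 changed rank in wild type, and 2, Cdx1 and Axin2, did in the knockout. Ccnd1 then led in wild type at 21.6, ahead of Tcf7 at 19.9 with overlapping libraries, and Lef1 moved furthest, to 7.33.

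**Figure D3:**
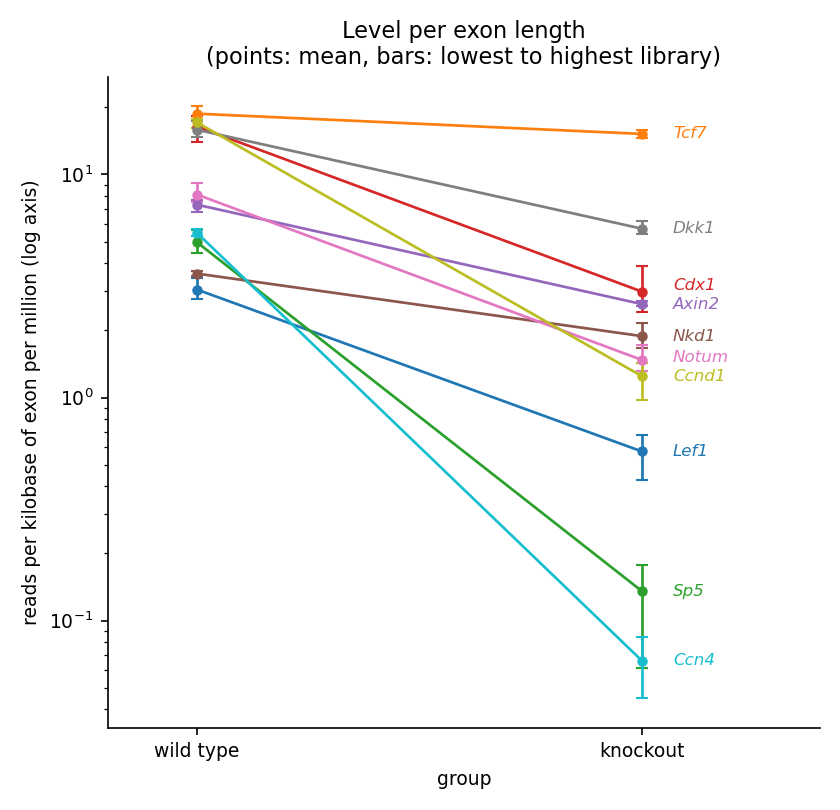
Level per length in RPKM (log axis) in wild type and knockout, with points at the mean and bars from the lowest to the highest of 3 libraries. Lengths are those of all annotated exons. In wild type Tcf7 (18.7) and Ccnd1 (17.1) overlap at the top, and in the knockout Tcf7 is at 15.2 and Ccnd1 at 1.25.

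The 10 genes lie on 8 chromosomes. Tcf7, Axin2 and Notum share chromosome 11 with HoxB, at 43.9, 12.6 and 24.3 Mb from it, and fell by 0.30, 1.48 and 2.47 on the log2 scale. Exons of 4 of the 10 are overlapped by genes on the other strand, and as the strand setting of the counting was not given, reads of such pairs may not be separated. The overlap covered 38.1% of the exon length of Notum, 23.4% of Ccnd1, 13.7% of Lef1 and 3.80% of Axin2, and 0% of the other 6. The overlapping genes also fell. Notumos was at -1.95 (SE 0.29) and Myadml2os at -2.89 (SE 0.37), both over Notum, and LTO1, over Ccnd1, at -2.06 (SE 0.10). Gm43352, over Lef1, was at -2.21 (SE 0.23), and Gm11670, over Axin2, at -1.44 (SE 0.29). The 6 genes with no such overlap held both the largest fall, of Ccn4, and the smallest, of Tcf7. How many reads of the 4 overlapped genes came from the other strand was not tested.

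Other genes of the pathway were taken from 6 lists by role, 113 genes in all, of which 95 passed the filter on low counts. In this set 54 fell, 24 rose and 17 did not pass, and the median log2 fold change was -0.27. Over all genes tested 34.0% fell and 34.5% rose, the shares against which the counts by role below are read. Among other reported Wnt targets, 12 of 19 tested fell and 4 rose, with a median of -0.43. Myc, a growth-promoting factor, had wild-type values of 64.9, 69.1 and 69.9 CPM and knockout values of 4.38, 2.25 and 3.16 CPM (log2 fold change -4.38, SE 0.13). Tnfrsf19, a receptor of the TNF family, was at -1.57 (SE 0.073), Sp8, a relative of Sp5, at -1.63 (SE 0.19), and Cd44, a hyaluronan receptor, at -1.40 (SE 0.15). The 4 that rose were Snai2, a repressor of epithelial genes, at 2.05 (SE 0.18), the ubiquitin ligase Rnf43 at 1.15 (SE 0.19), Id2, an inhibitor of basic helix-loop-helix factors, at 0.96 (SE 0.050), and Ccnd2, encoding cyclin D2, at 0.45 (SE 0.064). Reported targets outside the 10 therefore moved both ways, with 63.2% of those tested falling. The mesoderm targets T, Tbx6 and Msgn1, with Cdx4 and Dkk4, had too few counts to be tested.

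Ligands and the proteins that make or release them were lower for 14 of the 18 tested and higher for 3 (median -1.28). Wnt6 had wild-type values of 103, 101 and 98.9 CPM and knockout values of 4.64, 7.86 and 4.68 CPM (log2 fold change -4.14, SE 0.11). Wnt7a was at -4.26 (SE 0.27), from 12.9 ± 1.75 to 0.656 ± 0.124 CPM. Wnt5a, which often acts without beta-catenin, was at -1.99 (SE 0.25), Wnt4 at -1.96 (SE 0.18) and Wnt3 at -1.94 (SE 0.22). Wls, the carrier that brings Wnt proteins to the surface, was at -0.77 (SE 0.040). The 3 that rose were Rspo4, a secreted amplifier, at 2.79 (SE 0.41), Wnt5b at 0.53 (SE 0.23, adjusted p = 0.0454 by edgeR) and Porcn, which adds the lipid to Wnt proteins, at 0.18 (SE 0.054). The call of Wnt5b was lost by DESeq2 (adjusted p = 0.0995), among other alternatives, and the libraries of Porcn overlapped between the groups.

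Among 17 receptors tested 9 fell and 2 rose (median -0.34). Fzd4 rose from 26.7 ± 2.08 to 98.8 ± 1.26 CPM (log2 fold change 1.88, SE 0.070) and the co-receptor Lrp6 by 0.24 (SE 0.049). In the other direction Fzd10 was at -1.93 (SE 0.19), Fzd1 at -1.34 (SE 0.15) and Fzd2 at -1.04 (SE 0.056). The tyrosine kinase-like receptors Ror1 and Ryk were at -1.58 (SE 0.11) and -0.32 (SE 0.044).

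Extracellular inhibitors other than Dkk1 and Notum, counted with the Dkk receptors Kremen1 and Kremen2, were higher for 6 of the 9 tested and lower for 1 (median 0.96). Sfrp1, a decoy that binds Wnt proteins, had wild-type values of 22.7, 20.5 and 22.1 CPM and knockout values of 62.9, 63.0 and 60.8 CPM (log2 fold change 1.52, SE 0.082). Sfrp5 rose by 0.96 (SE 0.10), Sfrp4 by 2.01 (SE 0.39), Frzb by 1.41 (SE 0.26), Dkk3 by 1.39 (SE 0.11) and Kremen1, a receptor of Dkk proteins, by 0.25 (SE 0.068). The 1 that fell was Dkk2, at -4.21 (SE 0.30), from 10.2 ± 0.582 to 0.531 ± 0.165 CPM. The decoys Sfrp1, Sfrp4, Sfrp5 and Frzb thus lay above 0 and the feedback brakes Dkk1 and Notum below it. The split was not complete, as Dkk2 also fell and the other 2 tested, Sfrp2 and Kremen2, did not pass the test.

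Of 18 transducers tested 8 fell and 8 rose, where 34.0% of all genes tested fell and 34.5% rose. Their fold changes ran from -0.43 to 0.89, with a median of -0.04. Ctnnb1, encoding beta-catenin itself, was at -0.22 (SE 0.027), from 1122.4 ± 6.90 to 961.9 ± 23.4 CPM. The tankyrases Tnks and Tnks2, which mark Axin for breakdown, rose by 0.89 (SE 0.041) and 0.46 (SE 0.036). Dvl1, a Dishevelled, rose by 0.49 (SE 0.054) and Btrc, which tags beta-catenin for breakdown, by 0.57 (SE 0.082), while the kinase gene Csnk1d was at -0.43 (SE 0.042). Of the nuclear factors 12 of 16 tested fell and 1, the corepressor gene Tle2, rose, with a median of -0.39. Among them were the corepressor genes Ctbp2 at -1.12 (SE 0.067), Tle4 at -0.94 (SE 0.080), Hdac1 at -0.56 (SE 0.048) and Ctbp1 at -0.52 (SE 0.046). The beta-catenin coactivator genes Bcl9l and Pygo2 were at -0.82 (SE 0.067) and -0.49 (SE 0.060).

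**Figure D4:**
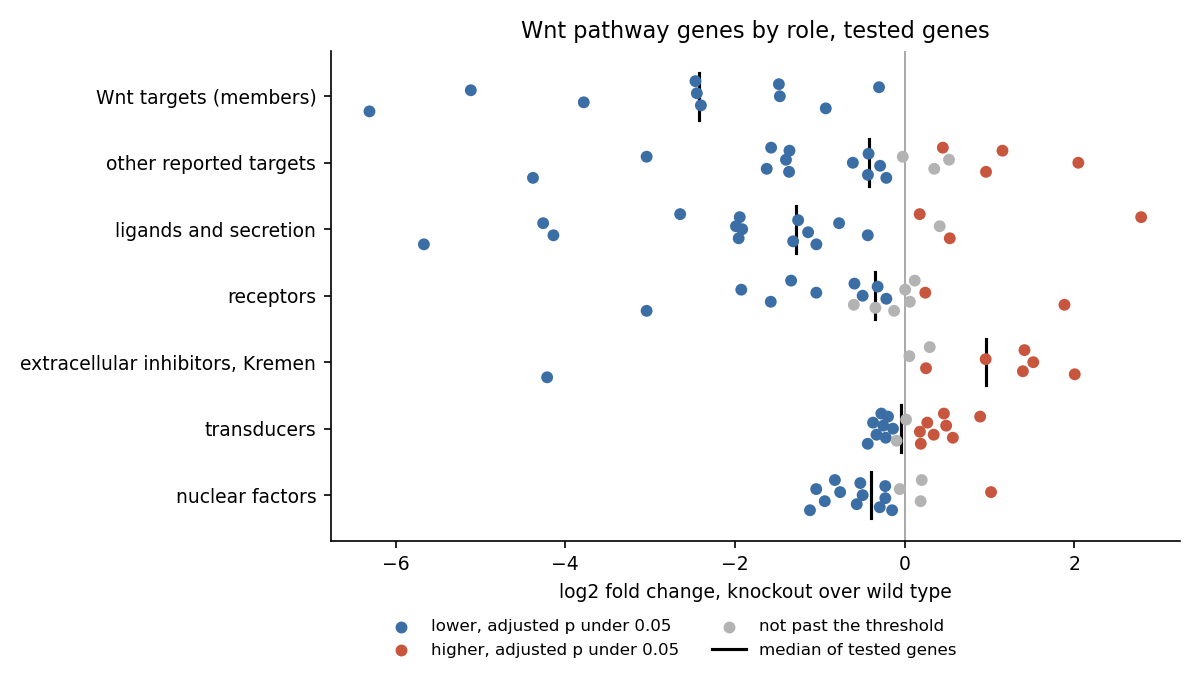
Log2 fold changes, knockout over wild type, of the tested genes of each role, coloured by the edgeR call, with a black bar at the median. The 10 target genes, which include the inhibitors Dkk1 and Notum, have the lowest median (-2.43), and ligands follow at -1.28. The other extracellular inhibitors, with the Kremen receptors, are the only role with a median well above 0 (0.96).

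Markers of several cell types moved between the same libraries, and their part in the falls of the Wnt targets was not tested. The counts by list stand against the 34.0% of all genes tested that fell and the 34.5% that rose. Of 10 mesenchyme markers tested 7 fell and 2 rose, and their summed level was 3637.9 to 3652.4 CPM over the wild-type libraries and 769.5 to 786.0 over the knockout libraries. Of 12 endoderm markers 10 rose and 1 fell, with sums of 4487.0 to 4527.6 and of 12549.9 to 12875.7 CPM. Stem cell markers fell in 6 and rose in 2 of 9 tested, with Nanog at -2.32 (SE 0.054), and summed to 1094.2 to 1114.1 and 766.8 to 797.7 CPM. One of the rises, of Pou5f1, was small (0.12, SE 0.049) with overlapping libraries, and its call was lost by DESeq2 (adjusted p = 0.0603) and with any of 4 libraries left out, wild-type replicates 1 and 3 and knockout replicates 1 and 2 (adjusted p from 0.0638 to 0.152 by edgeR). Neural progenitor markers fell in 3 and rose in 3 of 8 tested, near the shares of all genes. They summed to 471.3 to 495.7 and 154.5 to 164.3 CPM, with Fabp7 at 0. The median log2 fold change of the 8 was only -0.15. The sum weighs abundant genes most and does not stand for the list. Of the 10 primitive streak and mesoderm markers only Eomes and Lhx1 could be tested, and both fell (Lhx1 not without wild-type replicate 1, at -0.57 with an adjusted p of 0.0941 by edgeR). That list summed to 18.04 to 27.6 and 11.6 to 13.98 CPM, with Msgn1 at 0. Trophoblast markers, Cdx2 among them, fell in 4 and rose in 1 of 7 tested, and summed to 127.8 to 129.1 and 86.4 to 92.8 CPM. The higher mitochondrial share of the knockout libraries moved with the same groups.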

How the data were processed

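Read counts per Ensembl gene in 6 libraries were used as the authors deposited them, whole numbers with no normalisation. The submitters' processing notes list HISAT2 2.1.0, HTSeq 0.9.1, DESeq2 1.18.1 and the genome build mm10. Which annotation release and which strand setting were used is not given in the sources used here. Of each table the last tally rows stayed out. Of all reads, 36.0 to 38.4% were assigned to genes and 42.3 to 43.5% were tallied under no feature.

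Symbols, positions and exon lengths came from GENCODE M21 (GRCm38, the same assembly as mm10), which matched 52489 of 52636 identifiers. All genes were fitted together with edgeR 4.0.16 in R 4.3.3, comparing knockout with wild type and using no covariate. filterByExpr (minimum count 10) kept the genes, and TMM scaled the libraries. The quasi-likelihood test of edgeR gave the p-values, which were adjusted across every tested gene (Benjamini-Hochberg) and called at 0.05. Each SE is the size of the fold change over the root of its F value. Values are CPM after TMM, as mean ± SD of 3 libraries. Levels per kilobase use the union of annotated exons. The procedure was tested on simulated data with few changed genes and a fixed spread, so calls under changes as wide as these were not checked.

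The 10 genes and all lists were chosen with earlier results of these data known. Named genes were the 10, up to 6 per list of role by smallest adjusted p among those called with no overlap between groups, the relatives Tcf7l1, Tcf7l2, Axin1, Nkd2 and Ctnnb1, and the members of any count of 5 or fewer. Overlapping genes and marker genes were named after their values were seen. Alternatives were RLE and upper-quartile scaling, DESeq2 1.42.0, limma-voom (limma 3.58.1; not run for the lists of role), no filter beyond 1 count, the replicate number as a block, each library left out and, chosen after seeing the data, ribosomal RNA locus and mitochondrial genes left out.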

Additional observations from a re-analysis of the deposited data

How the results depend on the processing

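All 10 target genes were lower, and 0 higher, under each of the 13 alternatives, and each kept an adjusted p under 0.05. The weakest was Tcf7, with an adjusted p of at most 0.0191 and a log2 fold change of -0.35 to -0.25. The reach of the others was -6.52 to -6.10 for Ccn4, -5.33 to -4.79 for Sp5 and -1.54 to -1.45 for Axin2. Without knockout replicate 1 Sp5 was at -4.79 and Nkd1 at -0.85, the weakest values of both. Over all genes 5005 to 5711 were lower and 4918 to 5769 higher. Upper-quartile scaling moved the median of all genes to 0.046. Counts by role stayed within 1.5 times, except that 3 nuclear factors were higher with upper-quartile scaling and 1 to 2 with single libraries left out, in place of 1. The cause was not tested.

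With the replicate number as a block, 10 targets were lower, 5397 genes were lower and 5465 higher in all, and 2 nuclear factors were higher. Same-numbered libraries did not deviate together (correlations of 0.013, 0.0049 and -0.013 across genes), and the number was not read as a pairing. Depth limits Sp5 and Ccn4 in the knockout, where 1 to 4 reads per library set the fold change.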

Other observations

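Several Wnt genes are close neighbours in the genome, and 4 such pairs were looked at after their values were seen. Both genes had enough counts to be tested in 1 pair. Wnt6 and Wnt10a lie 6.19 kb apart on chromosome 1 and both fell. Wnt10a had 21, 33 and 20 reads in the wild-type libraries, against 0, 1 and 0 in those of the knockout, or 1.45% of the wild-type level when pooled (95% exact binomial interval 0.0361 to 8.31%, for counting error only). Without knockout replicate 2, which holds that 1 read, its fitted log2 fold change was -7.59 in place of -5.67, and such a value against libraries at 0 is no bound. Wnt3 and Wnt9b lie 24.3 kb apart on chromosome 11, and Wnt3 fell. Wnt9b had 4, 5 and 7 reads in the wild-type libraries, against 4, 9 and 2 in those of the knockout, too few to be tested. Wnt9a fell by 0.43 on the log2 scale (SE 0.14; without wild-type replicate 2 it was at -0.34 and not called, adjusted p = 0.0599 by edgeR), beside Wnt3a with 0 to 5 reads per library. Wnt10b fell by 1.91 (SE 0.25), beside Wnt1 with 2 reads in all.

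The D-type cyclins, also chosen after their values were seen, went apart. Ccnd3 fell by 0.89 (SE 0.047), from 238.1 ± 12.3 to 128.2 ± 4.75 CPM, and Ccnd2 rose from 56.4 ± 4.14 to 76.9 ± 1.67 CPM. Of the receptors for R-spondins, Lgr5, itself a Wnt target, was at -3.04 (SE 0.52), from 21, 17 and 26 wild-type reads and 1, 3 and 3 knockout reads. Its relative Lgr4 was at 0.12 (SE 0.056) and did not pass the test, though it did with upper-quartile scaling (0.16, adjusted p = 0.0153 by edgeR) and without wild-type replicate 1 (0.16, adjusted p = 0.0292 by edgeR). The ubiquitin ligases that clear Frizzled receptors also parted, with Znrf3 at -0.61 (SE 0.10) and Rnf43 at 1.15 (SE 0.19).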
